A study of Gallus gallus with 9 samples.

Results

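Endoderm is the germ layer that lines the future gut and gives rise to the pharynx, the lung, the liver and the pancreas. Endoderm-gated cells of the chick embryo at the midbrain axial level are described here, a set of 1313 cell barcodes chosen by 8 genes. A barcode was counted when it had at least 500 detected genes, at least 1 UMI (a unique molecular identifier, which marks 1 captured transcript) of at least 3 of the 5 marker genes SOX17, HHEX, TTR, APOA1 and FGB, and 0 UMIs of TWIST1, SOX21 and DLX5. The 1313 were found among 50363 barcodes with at least 500 genes, and among 107749 barcodes in the whole series. The remaining 49050 barcodes of the same libraries are called other barcodes.

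Chick (Gallus gallus) embryos of wild-type genotype, with no treatment, were cut at the level of the midbrain, each sample pooled the slices of more than 1 embryo, and the dissociated cells were run on the 10× Chromium platform. The libraries used here come from the gastrula stage HH5 and from embryos with 1 somite (1ss) and 4 somites (4ss), with 2 libraries at each stage. The later 7ss and HH11 libraries held 14, 11 and 3 barcodes that met the rule and were not compared. Every library shares the genotype, the axial level and the dissociation, and no cell labels came with the counts, so the name of these cells rests on genes alone.

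In the amniote gastrula the definitive endoderm moves through the primitive streak into the lower layer and displaces the hypoblast, an extraembryonic sheet that is known for its role in head patterning. Forkhead and GATA transcription factors open endodermal enhancers, SOX17 maintains endoderm identity, and HHEX marks the most anterior endoderm before the liver and thyroid primordia form. Yolk-facing endoderm of the bird embryo is known to make plasma proteins, among them apolipoproteins, transthyretin (TTR) and the fibrinogen chains, before a liver exists.

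The number of endoderm-gated cells was 818 and 51 at HH5, 52 and 61 at 1ss and 178 and 153 at 4ss, for replicates 1 and 2 of each stage. That order of the 6 libraries (HH5, 1ss, 4ss, replicate 1 before replicate 2) is kept wherever 6 values are given. They made up 7.45% (95% exact binomial interval 6.96 to 7.96) and 1.12% (0.836 to 1.47) of barcodes with at least 500 genes at HH5, 0.986% (0.737 to 1.29) and 1.17% (0.896 to 1.5) at 1ss, and 2.09% (1.79 to 2.41) and 0.968% (0.821 to 1.13) at 4ss. HH5 replicate 1 stood above the 5 other libraries, and the stage means of 4.28% ± 4.47, 1.08% ± 0.13 and 1.53% ± 0.79 (SD, n = 2) overlapped. These intervals cover counting error only, and the dissected area and the depth of a library also set the share. The part of free RNA (levels given below) in the share was not tested.

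Depth differed between libraries. The UMIs summed over endoderm-gated cells were 5142021, 118847, 417976, 368223, 1382161 and 1381947, and their median UMIs per barcode were 6248, 2057, 5970.5, 5674, 5919 and 7818, against 1710 to 6379 in other barcodes. HH5 replicate 2 was the shallowest library and stood apart, with a correlation of log levels to the other libraries of 0.745 to 0.817 over 6643 genes, where all other pairs lay between 0.886 and 0.948. A doublet caller marked 0 to 9.05% of endoderm-gated cells per library, and no endoderm-gated barcode sequence was shared between libraries, although 7 to 79 barcode sequences were shared by each pair of libraries. The absence of TWIST1, SOX21 and DLX5 removed 603, 20, 41, 36, 62 and 97 barcodes that otherwise met the rule. Barcodes with UMIs of at least 2 endothelium and blood genes made up 3.06%, 0%, 1.92%, 8.20%, 10.1% and 22.2% of endoderm-gated cells, a share that was higher in both 4ss libraries than at HH5. Among other barcodes the share was 0.905%, 0.156%, 1.32%, 0.737%, 2.47% and 2.10%, also higher in both 4ss libraries than at HH5. The part of depth in these shares was not tested.

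The values that chose the cells are given as a description. APOA1, the main protein of high-density lipoprotein, was found in 98.0% to 100% of endoderm-gated cells per library, and also in 11.8% to 50.8% of other barcodes. Its level in the endoderm-gated cells was 7267, 1195, 2591, 3438, 2247 and 7802 CPM (UMIs per 1000000 UMIs of the same class and library), against 69.9 to 378 CPM in other barcodes and 49.5 to 632 CPM in free RNA, the RNA of droplets with at most 100 UMIs. HHEX was found in 85.2% to 98.1% of the cells and SOX17 in 41.0% to 98.0%, with the SOX17 level at 775, 799, 287, 261, 124 and 492 CPM. SOX17 was thus highest in both HH5 libraries and lowest in 4ss replicate 1. Free RNA of HH5 replicate 1 held 91.1 CPM of SOX17 and 109 CPM of TTR, against 4.24 to 36.4 and 1.52 to 18.1 CPM elsewhere. In that library 12.1% of other barcodes held SOX17 and 16.1% held HHEX, against 1.03 to 5.40% and 7.04 to 10.1% elsewhere.

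FGB, the beta chain of fibrinogen, and TTR, a carrier of thyroid hormone and retinol-binding protein, varied most. FGB was found in 45.8%, 9.80%, 63.5%, 72.1%, 82.6% and 67.3% of the cells, and TTR in 38.6%, 5.88%, 15.4%, 34.4%, 31.5% and 48.4%. The TTR level was 1476, 42.1, 45.5, 1608, 192 and 1193 CPM, high in HH5 replicate 1, 1ss replicate 2 and 4ss replicate 2 and low in the replicate of each. Of the 1313 cells, 503 (38.3%) were chosen by SOX17, HHEX and APOA1 alone, 222 (16.9%) held all 5 markers, 154 (11.7%) held HHEX, APOA1 and FGB, and 146 (11.1%) held all but TTR.

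**Figure D1:**
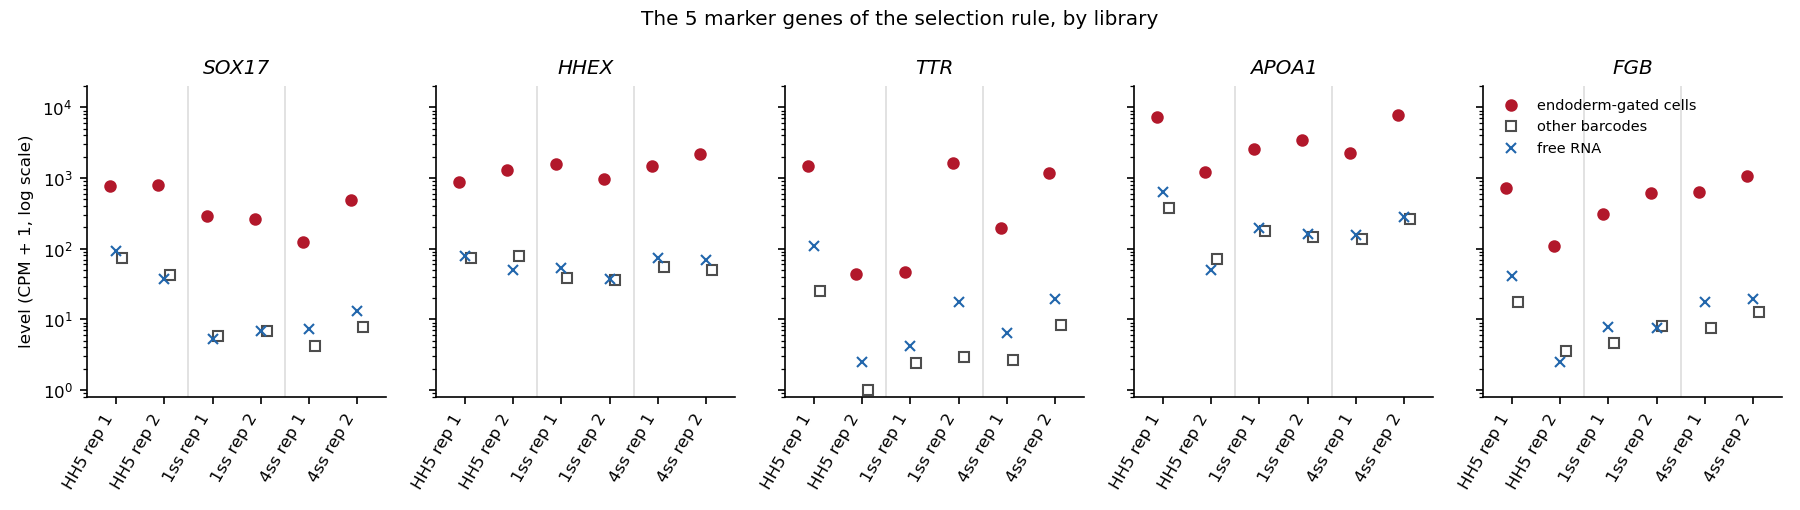
Levels of the 5 rule markers (CPM + 1, log axis) in each of the 6 libraries, with circles for endoderm-gated cells, squares for other barcodes and crosses for free RNA. Endoderm-gated cells lie above other barcodes in every panel and library, and their TTR ranges from 42.1 to 1608 CPM.

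Levels differed with the number of rule markers that a barcode held. The keratin KRT18 had a median over the 6 libraries of 454 CPM in barcodes with exactly 2 markers, 827 CPM in those with exactly 3 and 2743 CPM in those with 4 or 5. For FGG, the gamma chain of fibrinogen, these medians were 1.90, 38.9 and 291 CPM, and for FOXA2 they were 114, 234 and 179 CPM. The neural gene SOX2 went the other way, from 5.65 CPM at exactly 2 markers to 0.501 CPM at exactly 3. Barcodes that met the marker rule but held a UMI of TWIST1, SOX21 or DLX5 had KRT18 at 800.3 CPM and TFAP2A, an ectodermal transcription factor, at 15.7 CPM, as medians over libraries. HH5 replicate 2 gave only 3 barcodes with 4 or 5 markers. Depth differed too, with median UMIs at exactly 2, exactly 3 and 4 or 5 markers of 5536, 6373 and 5981.5 in HH5 replicate 1. In 4ss replicate 2 they were 3481, 5832.5 and 10826.

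Endoderm-gated cells were then compared with other barcodes of the same libraries, for every gene that the rule did not use, to find what else these cells express. UMIs were summed per library and class, so that the 6 libraries and not the cells were the replicates, and tested with edgeR's quasi-likelihood test with the library as a block. Of 9927 genes tested, 2518 had an adjusted p under 0.05, which is 25.4%. Of these, 1210 were higher (12.2%) and 1308 lower (13.2%), and the median log2 difference of all genes tested was -0.04. These shares over all genes are the background for the counts of every gene list in the class comparison below. Genes that are co-expressed with the 5 markers follow from the choice of cells, so these differences describe the cells that the rule selects.

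The endoderm transcription factors, which the rule did not use, were higher as a group. Genes co-expressed with the markers follow from the choice of cells, so this rise describes the cells and does not test the label. Of 13 listed, 10 were matched by symbol, 8 were tested, and 7 rose in endoderm-gated cells with none lower, at a median log2 difference of 1.90. FOXA2, a forkhead factor required for endoderm and axial mesoderm, was at 171, 303, 266, 215, 259.7 and 97.0 CPM in the cells and at 32.4, 36.7, 18.6, 17.4, 22.9 and 10.9 CPM in other barcodes. The classes did not overlap, and the difference was 3.24 ± 0.15 on the log2 scale (± SE, edgeR adjusted p = 1.02e-12). After each barcode was thinned to 2000 UMIs, FOXA2 was detected in 28.7, 42.9, 38.6, 31.2, 37.0 and 22.6% of the cells (of 745, 28, 44, 48, 146 and 133 with that depth) and in 1.85 to 5.80% of other barcodes.

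Zinc-finger factors of the GATA family, which act in endoderm and in heart mesoderm, were higher too. GATA5 was at 299.7, 151, 395, 475, 412 and 694 CPM in endoderm-gated cells and 59.7 to 135 CPM in other barcodes, so that every endoderm-gated value lay above every other value (log2 difference 2.22 ± 0.13, adjusted p = 4.2e-11). GATA6 was at 199, 101, 184, 198, 124 and 216 CPM against 9.43 to 29.3 CPM, again without overlap (log2 2.89 ± 0.19, adjusted p = 1.64e-10). GATA4 was rare, at 0 to 24.9 CPM and at 0 in HH5 replicate 2, and passed the test at 2.63 ± 0.30 (adjusted p = 8.3e-07).

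FOXA1, a second forkhead factor, was at 32.3, 109, 88.5, 119, 101 and 18.8 CPM against 8.78, 18.3, 41.4, 45.0, 39.8 and 6.62 CPM. Within each library it was higher in endoderm-gated cells (log2 1.58 ± 0.15, adjusted p = 3.94e-08), although the 2 classes overlapped across libraries. EOMES, a T-box factor of early mesendoderm, was higher by 1.31 ± 0.22 (adjusted p = 9.04e-05). Over 21 alternative settings its log2 value ranged from 0.39 to 1.69, and the call was lost in 3. SOX18, a relative of SOX17 known from endothelium, was at 0 to 19.5 CPM and passed at 1.44 ± 0.36 (adjusted p = 0.00458), but not when 4ss replicate 2 was left out (1.11, adjusted p = 0.0875). The SOX18 call was lost in 6 of 20 alternative settings, this one among them, with log2 values from 0.16 to 1.79. The hepatic regulator HNF4A stayed at 0 to 2.33 CPM in endoderm-gated cells, too low to be tested.

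**Figure D2:**
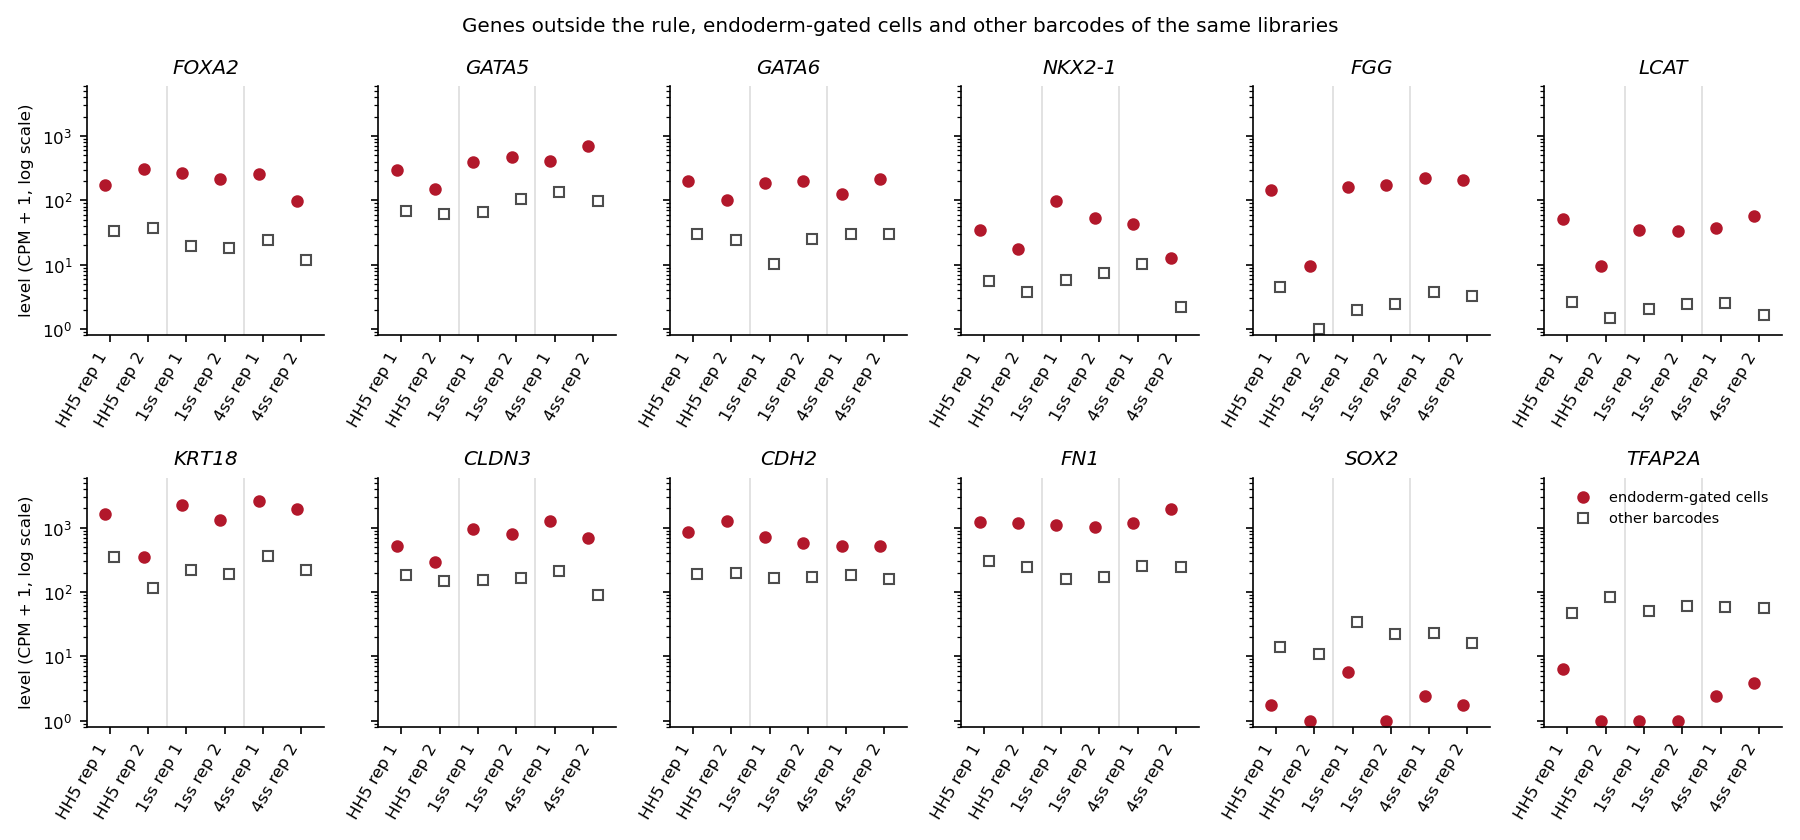
Levels of 12 genes outside the rule (CPM + 1, log axis) in each of the 6 libraries, with circles for endoderm-gated cells and squares for other barcodes. FOXA2, GATA5, GATA6 and FGG lie higher in endoderm-gated cells of all 6 libraries, and SOX2 and TFAP2A lie lower.

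Genes of secreted plasma proteins and lipid transport were higher in endoderm-gated cells. Of 26 listed, 23 were matched by symbol, 10 were tested, 8 rose and none fell, at a median log2 difference of 2.79. FGG, whose product joins the rule's FGB in fibrinogen, was at 144, 8.41, 158, 174, 221 and 207 CPM in endoderm-gated cells and 3.49, 0, 0.994, 1.48, 2.76 and 2.21 CPM in other barcodes. The cells were higher in every library, HH5 replicate 2 had the lowest level, and the difference was 6.36 ± 0.20 (adjusted p = 2.64e-15). In thinned barcodes FGG was detected in 16.8, 3.57, 22.7, 27.1, 36.3 and 21.8% of the cells and 0 to 0.426% of other barcodes, with 0.505 to 9.70 CPM in free RNA.

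LCAT, which esterifies cholesterol on high-density lipoprotein, was at 51.0, 8.41, 33.5, 32.6, 36.9 and 57.2 CPM in endoderm-gated cells and 0.483 to 1.62 CPM in other barcodes (log2 5.14 ± 0.27, adjusted p = 6.08e-12). MTTP, which loads lipid onto nascent lipoproteins, was at 2.17 to 17.9 CPM against 0 to 0.144 CPM (log2 6.87 ± 0.50, adjusted p = 8.32e-10). APOC3, an apolipoprotein of triglyceride-rich particles, was at 792, 143, 117, 258, 139.6 and 180.2 CPM, highest in HH5 replicate 1, and rose by 2.58 ± 0.19 (adjusted p = 1.2e-09). The remaining members that rose were SPINK5, a protease inhibitor, SERPINF2, TF and VTN, by 4.85, 3.00, 1.38 and 0.47 on the log2 scale. ALB, AHSG and APOB, major products of the later liver, stayed at 0 to 1.36 CPM in the endoderm-gated cells of every library.

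By the rule for named genes, the 12 higher genes with the largest differences were CYP2C23b, TSPAN8, FGG, CYP2C23a, RBP4A, SH3TC1, LCAT, FYB2, SLC5A1, LGALS2, BAAT and NKX2-4. CYP2C23a and CYP2C23b are cytochrome P450 genes, RBP4A encodes a retinol-binding protein, SLC5A1 is the sodium-glucose transporter of absorptive epithelium, and BAAT conjugates bile acids.

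RBP4A was at 465, 33.7, 9.57, 334, 13.0 and 116 CPM in endoderm-gated cells, high in HH5 replicate 1 and 1ss replicate 2 as TTR was, and at 0.738 to 8.19 CPM in other barcodes (log2 5.87 ± 0.35, adjusted p = 5e-11). CYP2C23b was at 6.03, 8.41, 57.4, 57.0, 6.51 and 7.24 CPM, highest in both 1ss libraries, and at 0 to 0.254 CPM in other barcodes (log2 6.47 ± 0.54). TSPAN8, a tetraspanin of epithelial membranes, was at 25.9, 16.8, 2.39, 40.7, 21.7 and 40.5 CPM against 0.0856 to 0.736 CPM (log2 6.46 ± 0.41). A higher level in endoderm-gated cells of all 6 libraries was a condition for being among the 12 genes and is no result. In HH5 replicate 2, with 118847 UMIs over all endoderm-gated cells, the lowest of these levels rest on very few UMIs. The log2 differences of the other named genes were 6.01 for CYP2C23a, 5.22 for SH3TC1, 4.74 for FYB2, 4.66 for SLC5A1, 4.42 for the galectin LGALS2, 4.39 for BAAT and 4.19 for NKX2-4, a homeobox gene related to NKX2-1. CYP2C23a and CYP2C23b are paralogs, so reads of 1 may have been counted for the other.

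Yolk uptake and extraembryonic endoderm genes were mostly close to the detection limit. Of 11 listed, 10 were matched by symbol, 5 were tested, 2 rose and none fell, with a median of 0.18. DAB2, an adaptor for endocytosis of lipoprotein receptors, was at 25.7, 16.8, 12, 21.7, 12.3 and 40.5 CPM against 0.966 to 2.51 CPM, without overlap (log2 4.00 ± 0.31, adjusted p = 2.7e-09). PDGFA, a growth factor, was at 57.6, 25.2, 266, 274, 308 and 110.0 CPM against 38.3, 98.2, 14.1, 19.4, 19.3 and 23.1 CPM in other barcodes. It was lower in endoderm-gated cells in HH5 replicate 2 and higher in the other libraries, and rose by 2.63 ± 0.42 (adjusted p = 5.85e-05). The receptors of yolk endocytosis gave little signal, with CUBN at 0 to 9.92 CPM and LRP2 at 0 to 23.1 CPM in endoderm-gated cells.

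Genes of the pharynx and foregut rose in most cases. Of 17 listed, 16 were matched by symbol and 13 were tested, of which 8 rose and 1 fell, at a median log2 difference of 1.11. ISL1, a LIM homeobox gene of foregut endoderm and heart progenitors, was at 38.7, 109, 151, 111, 142 and 35.5 CPM against 7.17 to 29.7 CPM and did not overlap (log2 2.41 ± 0.18, adjusted p = 9.55e-10). NKX2-1, the regulator of thyroid and lung, was at 33.6, 16.8, 95.7, 51.6, 42.0 and 11.6 CPM against 1.23 to 9.19 CPM (log2 3.07 ± 0.24, adjusted p = 3.21e-09).

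NKX2-6 was at 7.20, 8.41, 43.1, 46.2, 56.4 and 27.5 CPM against 0.869 to 6.59 CPM (log2 3.18 ± 0.32), NKX2-3 rose by 1.80 ± 0.22 and PAX9, a gene of the pharyngeal pouches, by 2.07 ± 0.42. NKX2-5, known best from the heart field and also expressed in pharyngeal endoderm, rose by 1.11 ± 0.14 (adjusted p = 4.81e-06). EYA1 fell (log2 -1.95), and this call did not hold without 4ss replicate 1 (-1.59, adjusted p = 0.0652) or 4ss replicate 2 (-1.57, adjusted p = 0.0737).

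The anterior head organiser genes, which are expressed in anterior endoderm and prechordal plate and, for several of them, in anterior neural plate, gave mixed directions. Neither these genes nor the foregut genes test whether the cells are anterior, since genes co-expressed with the markers follow from the choice of cells. Of the 4 posterior genes tested, CDX4 and WNT5A rose (log2 2.61 and 1.90) and 2 fell. Which of the other barcodes held the genes of the head organiser list was not tested. The summed level of the list at HH5 was 1192 and 2970 CPM in endoderm-gated cells and 1531 and 2024 CPM in other barcodes. At 1ss and 4ss it was lower in endoderm-gated cells of every library. Of 10 listed, 9 were matched by symbol and 8 were tested, of which 2 rose and 6 fell, at a median log2 difference of -1.30. DKK1, a Wnt antagonist that promotes head formation, was at 26.1, 42.1, 7.18, 2.72, 5.06 and 27.5 CPM against 0.343 to 6.1 CPM (log2 2.89 ± 0.30, adjusted p = 2.06e-07). GSC, a homeobox gene of the organiser, passed at 0.95 ± 0.33 (adjusted p = 0.0381), but not without HH5 replicate 1 (0.33, adjusted p = 0.532), HH5 replicate 2 (0.77, adjusted p = 0.0703) or 1ss replicate 2 (0.98, adjusted p = 0.0743). It was at -0.20 (adjusted p = 0.707) with at least 4 markers, a fit of only 3 libraries.

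HESX1 was at 85.6, 75.7, 31.1, 16.3, 10.9 and 15.2 CPM against 291, 182, 549, 316, 184 and 64.6 CPM, lower in endoderm-gated cells of every library (log2 -2.69 ± 0.25, adjusted p = 3.97e-08). SHISA2, a Wnt and FGF receptor inhibitor, was at 659, 2263, 426, 285, 198 and 148 CPM against 707, 1134, 1886, 1476, 1279 and 539 CPM. HH5 replicate 2 was the only library in which SHISA2 was higher in endoderm-gated cells, and the difference was -1.34 ± 0.31 (adjusted p = 0.00268). FRZB, OTX2 and CER1 fell (log2 -2.41, -1.07 and -1.34). SIX3 fell (log2 -1.27, adjusted p = 0.0154), and this call did not hold without 1ss replicate 1 (-1.0, adjusted p = 0.071) or 1ss replicate 2 (-1.12, adjusted p = 0.0655).

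Posterior genes were few. Of 15 listed, 13 were matched by symbol and 4 were tested, of which 2 rose and 2 fell, at a median of 0.47. CDX4, a posterior homeobox gene, was at 53.7, 0, 9.57, 62.5, 7.96 and 13.7 CPM, high in HH5 replicate 1 and 1ss replicate 2, and rose by 2.61 ± 0.41 (adjusted p = 4.69e-05). WNT5A rose by 1.90 ± 0.26, while CYP26A1, which degrades retinoic acid, and TBXT, the notochord and streak factor, fell (log2 -2.23 and -0.96). HOXB2 and HOXB3 were at 0 in endoderm-gated cells of all 6 libraries, and the other HOX genes listed reached at most 13.6 CPM.

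Signalling genes gave both directions. Of 30 listed, 27 were matched by symbol and 18 were tested, of which 6 rose and 4 fell, at a median of 0.09. BMP2, a ligand that endoderm sends to heart mesoderm, was at 71.6, 75.7, 112, 62.5, 89.0 and 103 CPM against 5.70 to 14.1 CPM and did not overlap (log2 3.04 ± 0.17, adjusted p = 1.27e-11). BMP7 rose by 1.57 ± 0.24, whereas BMP4 fell (log2 -1.90), and the BMP antagonists CHRD and FST fell (log2 -2.04 and -3.72).

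FGF8 was at 3.31, 0, 19.1, 19.0, 28.9 and 28.2 CPM against 0.676 to 4.64 CPM (log2 2.81 ± 0.35, adjusted p = 2.22e-06), with its higher values at 1ss and 4ss. WNT4 was at 71.6, 0, 33.5, 48.9, 38.3 and 172 CPM, 0 in HH5 replicate 2 and highest in 4ss replicate 2, where other barcodes also reached 71.9 CPM (log2 2.41 ± 0.30). CFC1, the co-receptor for Nodal, rose by 1.11 ± 0.18, VEGFA by 1.18 ± 0.21, and the Wnt antagonist SFRP2 fell (log2 -2.33). SHH was at 3.62 to 25.2 CPM and did not pass (log2 0.74 ± 0.34, adjusted p = 0.124).

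Simple-epithelium keratins and N-cadherin were higher in endoderm-gated cells. Of 20 epithelial junction and keratin genes listed, 12 were matched by symbol and 10 were tested, of which 5 rose and 1 fell, at a median of 0.50. KRT18, the keratin of simple epithelia, was at 1615, 353, 2261, 1293, 2618 and 1967 CPM against 114 to 358 CPM, and HH5 replicate 2, the lowest, lay within the range of other barcodes (log2 2.77 ± 0.14, adjusted p = 4.46e-12, with 84.4 to 373 CPM in free RNA). KRT7 rose by 2.88 ± 0.12 and CLDN3, a tight-junction claudin, by 2.26 ± 0.16.

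N-cadherin, CDH2, was at 868, 1271, 715, 573, 514 and 522 CPM against 160.4 to 198 CPM and did not overlap (log2 1.99 ± 0.11, adjusted p = 1.24e-11). E-cadherin, CDH1, was at 43.8, 25.2, 43.1, 29.9, 74.5 and 33.3 CPM against 23.5 to 96.1 CPM and did not pass (log2 0.38 ± 0.20, adjusted p = 0.181), nor did EPCAM (log2 0.14 ± 0.14, adjusted p = 0.498). ESRP2, an epithelial splicing factor, rose by 0.62 ± 0.15. CLDN1 fell (log2 -0.46), a call lost without HH5 replicate 1 (-0.36, adjusted p = 0.0714) or 1ss replicate 1 (-0.42, adjusted p = 0.0532). It was at 0.078 (adjusted p = 0.767) with at least 4 markers, a fit of only 3 libraries.

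Of 18 matrix and basement membrane genes, 16 were matched by symbol and 15 were tested, with 4 that rose and 4 that fell and a median of -0.15. FN1, fibronectin, was at 1200.3, 1195, 1101, 1008, 1181 and 1928 CPM against 157 to 297 CPM, without overlap (log2 2.49 ± 0.10, adjusted p = 8.94e-14). The basement membrane linker NID1 rose by 1.69 ± 0.25, laminin beta LAMB1 by 0.77 ± 0.10 and SPARC by 0.66 ± 0.10. Type IV collagen went the other way, with COL4A1 lower (log2 -1.42 ± 0.21) and COL4A2 lower (log2 -2.07 ± 0.37), and OLFML3 and SPON1 also fell. With at least 2 markers in place of 3, OLFML3 was at 0.021 (adjusted p = 0.937).

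Neural genes were low in endoderm-gated cells, and the rule's demand for 0 UMIs of SOX21 acts in the same direction. All 8 neural genes tested fell, of 9 listed, at a median log2 difference of -3.86. HES5, a Notch target of neural progenitors, was at 6.61, 8.41, 0, 0, 2.89 and 7.24 CPM against 46.0 to 167 CPM, and free RNA held 23.3 to 144 CPM (log2 -4.08 ± 0.26, adjusted p = 1.37e-10). SOX2 and PAX6 fell (log2 -3.90 and -3.83). The values in endoderm-gated cells lay below the free RNA level in every library for HES5 and for TFAP2A, which was at 0 to 5.45 CPM against 26.0 to 33.4 CPM in free RNA.

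Of 7 non-neural ectoderm genes, 4 fell and 3 rose, at a median of -2.78. Their summed level was 429 to 1405 CPM in endoderm-gated cells and 325 to 714 CPM in other barcodes, and it was higher in endoderm-gated cells of every library but HH5 replicate 2. TFAP2A, TFAP2C, DLX6 and the metalloprotease ASTL fell (log2 -3.85, -3.81, -2.89 and -2.78). The rule's demand for 0 UMIs of DLX5, itself a non-neural ectoderm gene, acts in the same direction as these falls. GATA2, GATA3 and the keratin KRT24 rose by 1.24, 1.47 and 1.06, genes that other epithelia also express. The 8 named lower genes were HES5, TFAP2A, FST, ALX1, AGRP, ASTL, HTRA1 and HESX1. ALX1, a homeobox gene of head mesenchyme, was at 0 to 8.41 CPM against 14.7 to 51.8 CPM (log2 -3.63 ± 0.25), and AGRP, a neuropeptide, and HTRA1, a secreted protease, fell (log2 -3.10 and -2.69).

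Most mesoderm genes tested were lower, and the rule's demand for 0 UMIs of TWIST1, itself a mesoderm gene, acts in the same direction. Of 11 listed, 9 were matched by symbol and 7 were tested, of which 5 fell and 1 rose, at a median of -1.14. PDGFRA, MESP1, MEOX1 and SNAI2 fell (log2 -2.47, -4.46, -3.10 and -1.12), and the summed level of the list was 33.7 to 241 CPM in endoderm-gated cells and 71.0 to 161 CPM in other barcodes. PRRX1, a mesenchymal homeobox gene, was at 40.1, 0, 62.2, 54.3, 78.1 and 225 CPM, highest in 4ss replicate 2, and passed at 0.58 ± 0.19 (adjusted p = 0.0314), but not without HH5 replicate 1 (0.46, adjusted p = 0.11), 1ss replicate 1 (0.56, adjusted p = 0.0671) or 4ss replicate 2 (0.32, adjusted p = 0.285).

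Of 8 cardiac genes, 7 were tested, 4 fell and 1 rose, at a median of -0.73. MYL3 fell (log2 -2.52) and MYH7 rose by 1.77 from 3.21 to 5.99 CPM in other barcodes to 4.78 to 32.6 CPM. TNNT2, troponin T, was at 0.778, 0, 2.39, 24.4, 20.3 and 38.4 CPM against 4.82, 3.57, 10.0, 19.3, 52.1 and 34.4 CPM and fell (log2 -0.75, adjusted p = 0.0471), a call lost without HH5 replicate 1 (-0.49, adjusted p = 0.166), 1ss replicate 1 (-0.71, adjusted p = 0.0773) or 4ss replicate 1 (-0.52, adjusted p = 0.271).

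Endothelium and blood genes were higher in endoderm-gated cells too. Of 13 listed, 11 were matched by symbol and 6 were tested, of which 5 rose and none fell, at a median of 1.92. Their summed level was 43.8 to 321 CPM in endoderm-gated cells, lowest at HH5 and highest in 4ss replicate 2, and 17.5 to 80.2 CPM in other barcodes. CDH5, the cadherin that defines endothelium, was at 0 in both HH5 libraries and 1ss replicate 1 and at most 5.06 CPM elsewhere and RHAG was at 0 throughout.

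HBZ, an embryonic globin, rose by 3.33 ± 0.29, TAL1 by 2.48 ± 0.33, EGFL7 by 2.23 ± 0.24, LMO2 by 1.60 ± 0.23 and KDR by 1.44 ± 0.44. For LMO2, a blood and endothelium regulator at 5.83, 16.8, 7.18, 27.2, 123 and 114 CPM against 3.42, 5.31, 10.7, 6.56, 44.8 and 19.1 CPM, the difference was 0.69 (adjusted p = 0.157) after barcodes with at least 2 endothelium and blood genes were left out. With at least 4 markers in place of 3, the direction of both turned, to -1.19 for LMO2 (adjusted p = 0.0321) and -2.63 for KDR (adjusted p = 0.00761). That fit held 3 libraries, HH5 replicate 1 and both 4ss libraries, so the marker number and the loss of libraries cannot be told apart. The KDR call was lost without 1ss replicate 2 (1.33, adjusted p = 0.0696) or 4ss replicate 2 (0.62, adjusted p = 0.299). HHEX and SOX17 are also known from blood-forming endothelium, and the part of such cells in the other differences was not tested beyond leaving them out.

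Notochord and axial mesoderm genes were called in both directions. All 6 were tested, of which FOXJ1 and NOTO rose, by 1.17 and 0.88, and CHRD and TBXT fell, and their summed level was 40.5 to 159.9 CPM against 95.7 to 206 CPM in other barcodes. With at least 2 markers in place of 3, CHRD was at 0.60 (adjusted p = 0.0628) and TBXT at 0.66 (adjusted p = 0.0518). The FOXJ1 call was lost without 4ss replicate 1 (0.86, adjusted p = 0.16), and that of NOTO without HH5 replicate 1 (0.74, adjusted p = 0.21), HH5 replicate 2 (0.73, adjusted p = 0.0775), 1ss replicate 1 (0.77, adjusted p = 0.107) or 4ss replicate 2 (0.91, adjusted p = 0.0611).

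Proliferation genes were slightly lower in endoderm-gated cells. Of 12 cell cycle genes, 10 were matched by symbol and tested, 7 fell and none rose, at a median of -0.42. Over all genes tested, 13.2% were lower, at a median of -0.04. PCNA was at 442, 353, 407, 299, 349 and 460.2 CPM against 649.7, 331, 488, 418, 506 and 939.5 CPM (log2 -0.51 ± 0.10, adjusted p = 0.000789), and HH5 replicate 2 was the only library in which the cells were not lower. MCM5, MCM6, RRM2 and CDK1 fell (log2 -0.43, -0.43, -0.43 and -0.37), while TOP2A and BIRC5 did not pass (adjusted p = 0.537 and 0.178). MCM2 and AURKA also fell, the former call being lost without HH5 replicate 1 (-0.29, adjusted p = 0.129) or 4ss replicate 1 (-0.32, adjusted p = 0.0805) and the latter without 4ss replicate 2 (-0.28, adjusted p = 0.0535).

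Stages were compared next, among endoderm-gated cells only, to follow their genes from gastrula to the 4-somite embryo. At 4ss the cells had lower levels of head organiser genes than at HH5 and higher levels of NKX2-5, FGF8 and a few endothelial and muscle genes. Of 6638 genes tested with edgeR, 33 had an adjusted p under 0.05 (0.497%), with 10 higher (0.151%) and 23 lower (0.346%) at 4ss, and 429 had an unadjusted p under 0.05. The median log2 change of all genes tested was 0.04. The cells also lay in different clusters (described below by their leading genes) at the 2 stages. Cluster 1, with SIX3, GSC, HESX1 and SHISA2 among its leading genes, held 37.8% and 90.2% of the HH5 cells and 3.37% and 0.654% of the 4ss cells, and cluster 3, with NKX2-5 and PDGFA among its leading genes, held 0.122% and 3.92% at HH5 and 82.0% and 0% at 4ss. Cluster 7, with high levels of LMO2 and TNNT2, held 0% of the cells of both HH5 libraries and 2.81% and 15.7% of the 4ss cells. Changes within a cluster were not tested. With 2 libraries a stage, the p-values measure the spread between these libraries, and HH5 replicate 1 carried most of the HH5 cells. Without it 16 genes were called, of which 7 were among the 33.

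SIX3, a homeobox gene of the rostral head, was at 193 and 311 CPM at HH5, 52.6 and 27.2 CPM at 1ss and 15.9 and 2.89 CPM at 4ss. The stages did not overlap, and the change from HH5 to 4ss was -4.70 ± 0.56 on the log2 scale (edgeR adjusted p = 0.00299), with an adjusted p of at most 0.00973 over 21 alternatives. In thinned cells SIX3 was detected in 21.5, 32.1, 6.82, 8.33, 2.05 and 0% at the 6 libraries, against 3.37 to 41.1% of other barcodes. Other barcodes also held less SIX3 at 4ss, with 222 and 91.6 CPM at HH5 and 126 and 22.6 CPM at 4ss.

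SHISA2 was at 659 and 2263 CPM at HH5 and 198 and 148 CPM at 4ss, without overlap (log2 -3.07 ± 0.48, adjusted p = 0.0144). GSC went from 95.9 and 92.6 CPM to 5.79 and 21.0 CPM (log2 -2.85 ± 0.51, adjusted p = 0.0295) and HESX1 from 85.6 and 75.7 CPM to 10.9 and 15.2 CPM (log2 -2.70 ± 0.44, adjusted p = 0.0179). Over 21 alternatives the log2 changes of SHISA2, GSC and HESX1 ranged from -3.72 to -0.99, -4.14 to -1.53 and -3.63 to -1.39. Their calls were lost in 2, 4 and 6 of these alternatives. Of the 7 head organiser genes tested, 4 fell and none rose, at a median of -2.70, and the calls of GSC and HESX1 were lost without HH5 replicate 1 (-2.76 and -2.52, adjusted p = 0.244 for both).

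EOMES and CYP26A1 fell as well (log2 -2.79 and -3.01), and both calls were lost without HH5 replicate 1 (adjusted p = 0.146 and 0.302). ALDH1A1, an enzyme of retinoic acid synthesis, was at 16.3 and 25.2 CPM at HH5 and had 0 UMIs in all 1ss and 4ss libraries. It thus passed the count filter through HH5 alone, where it had 87 UMIs, few of them in replicate 2. Its mean HH5 level was 19.2-fold above a floor of 3 counts over the 4ss stage, or 1.09 CPM. That value leaves out the spread of the HH5 level. The ALDH1A1 call was lost without either 4ss library (adjusted p = 0.159 and 0.221 without replicate 1 and replicate 2). The calls of the adhesion molecule ALCAM (log2 -3.20 ± 0.40) and the membrane protein SERTM1 (-3.30 ± 0.60) held in every fit that left out 1 library. Over all 21 alternatives their log2 changes ranged from -3.53 to -2.24 and from -4.16 to -1.65, and their calls were lost in 1 and 3.

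Among the other named lower genes, OTX1, a homeobox gene of the forebrain and midbrain, went from 31.5 and 75.7 CPM to 3.62 and 5.07 CPM (log2 -3.32 ± 0.61). SPTSSB, a subunit of the sphingolipid synthesis enzyme, and UNC93A fell (log2 -4.40 and -3.87). Without HH5 replicate 1 these 3 calls were lost (adjusted p = 0.0871, 0.284 and 0.331), and that of UNC93A also without 4ss replicate 2 (-3.22, adjusted p = 0.0768).

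NKX2-5 was the pharyngeal gene that rose. It was at 13.6 and 16.8 CPM at HH5, 117 and 67.9 CPM at 1ss and 157 and 109 CPM at 4ss, so both later stages lay above HH5 (4ss against HH5 log2 3.18 ± 0.43, adjusted p = 0.00548, and 2.96 with adjusted p = 0.183 without HH5 replicate 1). Thinned cells had NKX2-5 in 3.09, 0, 22.7, 14.6, 19.9 and 17.3% at the 6 libraries. The other 7 tested did not pass, and of all 8 tested 6 were above 0 and 2 below, with NKX2-6 at 2.44 ± 0.53 (adjusted p = 0.068), NKX2-3 at 2.28 ± 0.53 (adjusted p = 0.104), ISL1 at 0.61 ± 0.59, PAX9 near 0 at 0.0038 ± 1.39 and NKX2-1 at -0.26 ± 0.55 (adjusted p = 1 for these 3). The median of the 8 was 0.92.

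FGF8 went from 3.31 and 0 CPM at HH5 to 28.9 and 28.2 CPM at 4ss (log2 3.10 ± 0.60, adjusted p = 0.0347), a call lost without HH5 replicate 1 (adjusted p = 0.323), 4ss replicate 1 (0.0768) or 4ss replicate 2 (0.119). LGALS3, galectin-3, was at 2.92, 0, 67.0, 19.0, 112 and 82.5 CPM over the 6 libraries, low at HH5 and higher in all later ones (log2 5.01 ± 0.64, adjusted p = 0.00299, and 0.181 without HH5 replicate 1). FILIP1, a regulator of filamin, and SPINK5 rose by 3.02 and 2.84, and without HH5 replicate 1 their adjusted p was 0.0937 and 0.11.

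LMO2, ETS1 and TNNT2, genes of blood vessels and heart, rose by 4.09, 3.64 and 5.08 (adjusted p = 0.00552, 0.0272 and 0.0322). Other barcodes also held more LMO2 and TNNT2 at 4ss than at HH5, by the values given above. Whether the change from HH5 to 4ss differed between the classes was not tested. LMO2 was at 5.83 and 16.8 CPM at HH5 and 123 and 114 CPM at 4ss, and in thinned cells it was detected in 1.07, 3.57, 4.55, 2.08, 4.11 and 12.8% at the 6 libraries. Without HH5 replicate 1 the adjusted p was 0.268, 0.291 and 0.449, and without 4ss replicate 2 it was 0.054 for ETS1 and 0.257 for TNNT2. Of the 5 tested members of the endothelium and blood list, which holds LMO2 itself, LMO2 alone was called, and KDR, TAL1, HBZ and EGFL7 did not pass (adjusted p = 0.0826, 0.123, 0.341 and 0.922). The median of the 5 was 3.16, and the summed level of the list in endoderm-gated cells was 43.8 and 50.5 CPM at HH5 and 234 and 321 CPM at 4ss. In other barcodes that sum was 17.5 and 19.5 CPM at HH5 and 80.2 and 47.9 CPM at 4ss. With barcodes of at least 2 of the list's genes left out, LMO2, ETS1 and TNNT2 fell below the count filter and were no longer tested, and 24 genes were called (6 higher, 18 lower), of which 21 were among the 33.

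**Figure D3:**
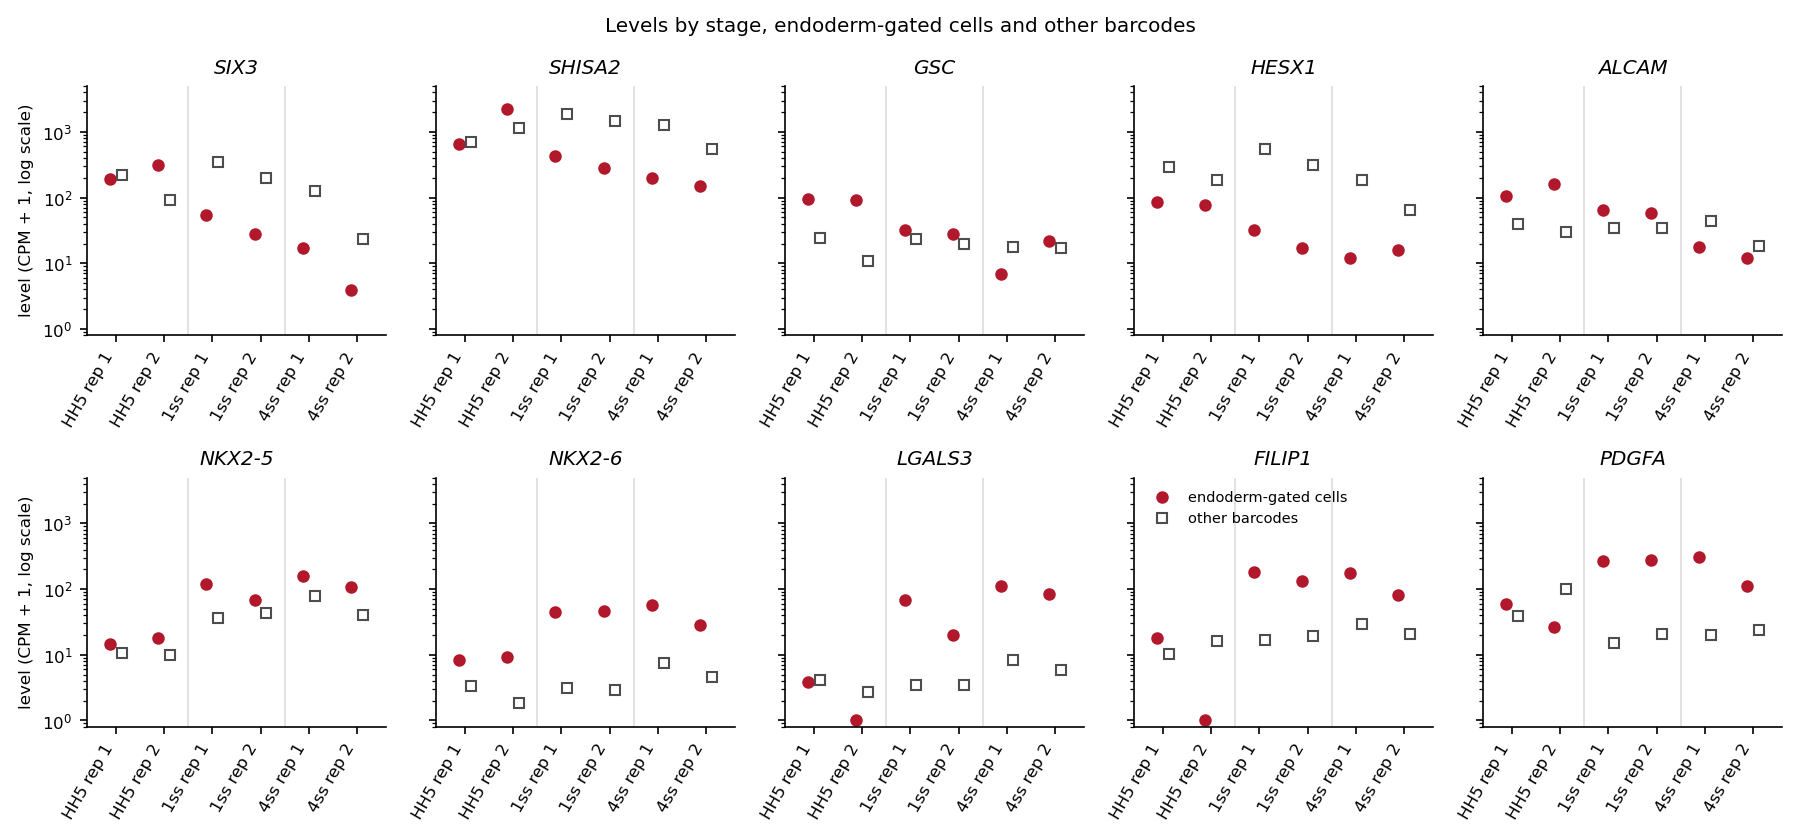
Levels of 10 genes (CPM + 1, log axis) in the 6 libraries ordered by stage, with circles for endoderm-gated cells and squares for other barcodes. In endoderm-gated cells SIX3 and SHISA2 decline from HH5 to 4ss, and NKX2-5 and LGALS3 are lower in both HH5 libraries than at 1ss and 4ss.

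The step from HH5 to 1ss, and that from 1ss to 4ss, gave no call. For 1ss against HH5, 0 of 6638 genes had an adjusted p under 0.05 (0.0%) with edgeR, the smallest being 0.0844, 297 had an unadjusted p under 0.05, and DESeq2 called 20 (9 higher, 11 lower). For 4ss against 1ss, edgeR called 0 (0.0%), with 0.218 as the smallest adjusted p and 189 genes at an unadjusted p under 0.05, and DESeq2 called 0. The 1ss sums rest on 52 and 61 cells.

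The head organiser genes again had negative values at 1ss against HH5, with a median of -1.83 over 7 genes, none past the test. SIX3 was at -2.61 ± 0.53 (adjusted p = 0.151) and SHISA2 at -2.03 ± 0.47 (adjusted p = 0.228). The pharyngeal genes had a median of 1.44 over 8 genes, again none past the test, with NKX2-5 at 2.66 ± 0.45 (adjusted p = 0.0844). Without HH5 replicate 1, HH5 replicate 2 or 1ss replicate 1 the fit called 3 genes each, without 1ss replicate 2 it called 4, and without 4ss replicate 1 or 4ss replicate 2 it called 51 and 50. For 4ss against 1ss, 76 genes were called without 4ss replicate 1 and 1 without 4ss replicate 2.

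Whether the change from HH5 to 1ss differed between endoderm-gated cells and other barcodes was tested by the interaction of class and stage, with the library as a block. Of 11131 genes tested, 82 had an adjusted p under 0.05 (0.737%), with a more positive change in endoderm-gated cells for 46 (0.413%) and a more negative one for 36 (0.323%). Without the library block edgeR called 0, and without each of the 4 HH5 and 1ss libraries in turn it called 21 to 48 (36 without HH5 replicate 1, 48 without HH5 replicate 2, 21 without 1ss replicate 1 and 37 without 1ss replicate 2).

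PDGFA was at 57.6 and 25.2 CPM at HH5 and 266 and 274 CPM at 1ss in endoderm-gated cells, and at 38.3 and 98.2 CPM and 14.1 and 19.4 CPM in other barcodes. It was thus higher at 1ss in the former and lower in the latter, and the change in endoderm-gated cells less that in other barcodes was 3.75 ± 0.28 on the log2 scale (adjusted p = 1.65e-37). For SIX3 the 2 classes also moved apart, with 350.0 and 196 CPM in other barcodes at 1ss, and the changes differed by -3.15 ± 0.31 (adjusted p = 2.21e-20). SHISA2 differed by -2.63 ± 0.19 (adjusted p = 3.14e-39). With 2 libraries at each stage, p-values this small rest on a spread that edgeR shares over genes. They overstate the certainty that these libraries can give. These 3 calls were lost only without the library block (adjusted p = 0.216 for PDGFA, 1 for SIX3 and 0.84 for SHISA2).

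Of the 9 head organiser genes tested, 6 had a more negative change in endoderm-gated cells and none a more positive one, at a median of -1.82 beside -0.06 over all genes. HESX1 differed by -2.53 ± 0.36 (adjusted p = 1.91e-09). The epithelial genes KRT18, CLDN3 and EPCAM differed by 1.03, 1.09 and 0.84, calls that were each lost without HH5 replicate 2 (adjusted p = 0.347, 0.206 and 0.523) and without 1ss replicate 1 (0.262, 0.103 and 0.0539), and that of EPCAM also without HH5 replicate 1 (0.167) or 1ss replicate 2 (0.905).

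Endoderm-gated cells were not uniform. Clustering on 1000 variable genes without the rule genes gave 7 clusters, which are described by their leading genes with no test, since the clusters were made from the genes described. Cluster 1 held 372 cells led by SIX3, the neuropeptide precursors SST and POMC, GSC, HESX1 and SHISA2, with SIX3 at 393 CPM against 20.4 CPM in the other endoderm-gated cells. It had little FGB (18.1 CPM) and KRT18 (326 CPM), and more SHH (46.1 CPM) and TBXT (48.9 CPM) than the other clusters. It made up 37.8% of the cells of HH5 replicate 1 and 90.2% of those of HH5 replicate 2. SHH and TBXT are listed above as notochord and axial mesoderm genes, and the head organiser genes are also expressed in prechordal plate. Whether the cells of cluster 1 are endoderm or axial mesoderm was not tested.

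Cluster 4 held 155 cells, 141 from HH5 replicate 1, and had RBP4A, TTR and APOC3 among its leading genes, with RBP4A at 2354 CPM against 44.2 CPM and CDX4 at 229.9 CPM against 13.2 CPM. Its APOA1 level was 27693 CPM. Cluster 2, with 311 cells of which 286 came from HH5 replicate 1, was led by MSX2, RDH10 and CHGB with smaller differences (MSX2 at 71.8 CPM against 22.6 CPM).

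Cluster 3, with 217 cells, was led by GBX2, TLX1, MEIS2, FILIP1, PDGFA and NKX2-5, with GBX2 at 325 CPM against 34.5 CPM. It made up 76.9%, 45.9% and 82.0% of the cells of 1ss replicate 1, 1ss replicate 2 and 4ss replicate 1, and 0% of 4ss replicate 2. In that library 81.0% of the cells lay in cluster 5 (132 cells, 124 from it), which was led by PRRX1, EPAS1 and CDKN1A. The 4ss libraries thus fell into different clusters, and cluster 5 may be a library rather than a kind of cell, which cannot be told apart here.

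Cluster 6 held 93 cells, 78 from HH5 replicate 1, with CDX4 and BBOF1 among its leading genes, and it had the lowest median share of mitochondrial UMIs (1.34%), the lowest median UMIs (3870) and the highest share of doublet calls (11.8%). Cluster 7 held 33 cells, 24 from 4ss replicate 2, and was endothelium-blood-like by the markers listed, with LMO2 at 1365 CPM against 7.34 CPM and KDR, TAL1 and ETS1 among its leading genes. FOXA2 was at 8.80 CPM and FGB at 0 CPM in that cluster, while HHEX was at 1356 CPM and APOA1 at 585 CPM. The muscle genes TNNT2 and MYL2 also had their highest levels in these 33 cells, with TNNT2 at 369.8 CPM against 1.28 CPM.

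**Figure D4:**
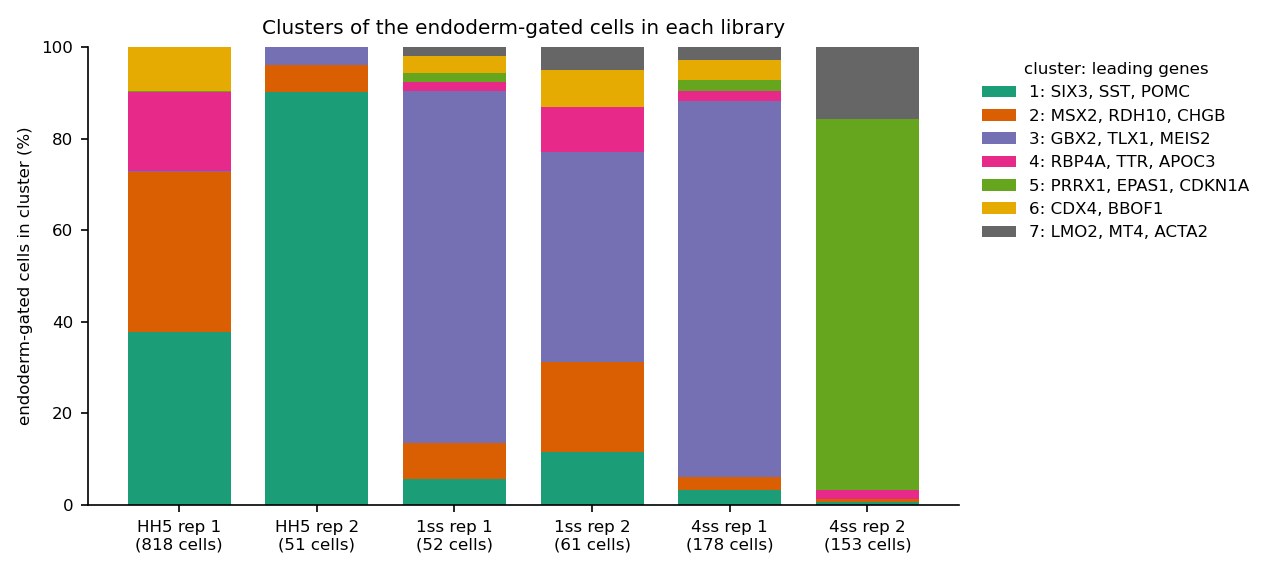
Share of the endoderm-gated cells of each library (percent, vertical axis) in each of the 7 clusters, as stacked bars that reach 100%, with leading genes of each cluster in the key. HH5 replicate 2 lies almost wholly in cluster 1 (90.2%), and 4ss replicate 1 and 4ss replicate 2 lie mostly in cluster 3 (82.0%) and cluster 5 (81.0%).

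Since TTR varied most among the rule genes, endoderm-gated cells with and without a TTR UMI were set side by side within each library. There were 316, 8, 21, 56 and 74 cells with TTR and 502, 44, 40, 122 and 79 without it in HH5 replicate 1, 1ss replicates 1 and 2, and 4ss replicates 1 and 2, the order of the 5 values below. HH5 replicate 2 had 3 cells with TTR and was not counted. The split uses the outcome of a rule gene within 1 set of cells, so it is given as a description, and with only 8 cells in 1ss replicate 1 its values there are uncertain. A cell without TTR had to hold at least 3 of SOX17, HHEX, APOA1 and FGB, and a cell with TTR only 2. Of those without TTR, 503 over the 6 libraries held SOX17, HHEX and APOA1 alone. Genes co-expressed with these markers can thus differ between the 2 groups through the choice of cells.

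Of 23 plasma protein and lipid carrier genes matched by symbol, 5 were higher with TTR in all 5 libraries and none was lower in all 5. The share of all genes on the same side in all 5 libraries was not computed. This count and those of the lists below thus have no background and are a description only. FGG was at 354, 299.9, 449, 375 and 362 CPM with TTR and 27.0, 131, 47.5, 145 and 36.4 CPM without. RBP4A was at 1240.2, 30.0, 1009.9, 32.9 and 205 CPM against 32.4, 5.69, 23.8, 3.24 and 18.2 CPM, and LCAT at 65.8 to 127 CPM against 8.79 to 22.8 CPM. Every value with TTR was above the value without it in the same library, and for FGG and LCAT the 2 groups did not overlap at all.

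Transcription factors of the GATA family followed, with GATA5 at 525, 945, 673, 632 and 1037 CPM with TTR and 174, 290.4, 384, 303 and 317 CPM without, and GATA6 at 197 to 449.8 CPM against 88.5 to 162 CPM. CDX4 was at 141, 45.0, 138, 17.5 and 23.5 CPM against 4.85, 2.85, 27.7, 3.24 and 3.04 CPM. The keratins KRT18 and KRT7, the adaptor DAB2, WNT4, SLC5A1 and TSPAN8 were also higher with TTR in all 5 libraries, with KRT18 at 1890.4 to 3650.1 CPM against 889 to 2152 CPM.

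Of 16 pharyngeal and foregut genes matched, 5 were lower with TTR in all 5 libraries and 1 was higher in all 5, and of 9 head organiser genes 3 were lower and none higher. The others, among them NKX2-1, NKX2-3, NKX2-6, SIX3, HESX1 and OTX2, were not on the same side in all 5. NKX2-5 was at 10.3, 90.0, 43.2, 145 and 56.7 CPM with TTR and 15.5, 122, 79.2, 163 and 165 CPM without, lower with TTR in all 5 libraries. SHISA2 was at 112 to 375 CPM against 187 to 877 CPM, and ISL1, PAX9, FGF8, DKK1 and GSC were lower with TTR in all 5 as well. DKK1 was at only a few CPM at 1ss, so its side there rests on very few UMIs. The same limit holds for other genes of low level in 1ss replicate 1, where 8 cells held TTR and such genes can read 0. The endothelial genes LMO2 and KDR were also lower with TTR, with LMO2 at 5.43, 0, 8.63, 11.0 and 18.0 CPM against 6.06, 8.54, 35.7, 178 and 220.1 CPM. Median UMIs per cell were 5234, 4704.5, 4013, 7025 and 9068.5 with TTR and 6492.5, 5970.5, 5829.5, 5687.5 and 6633 without, so the cells with TTR were the shallower ones at HH5 and 1ss and the deeper ones at 4ss. Doublet calls were 13.6%, 12.5%, 0%, 1.79% and 4.05% with TTR and 6.18%, 2.27%, 0%, 5.74% and 8.86% without, higher with TTR in HH5 replicate 1 and 1ss replicate 1 and lower at 4ss, and their part in the split was not tested.

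**Figure D5:**
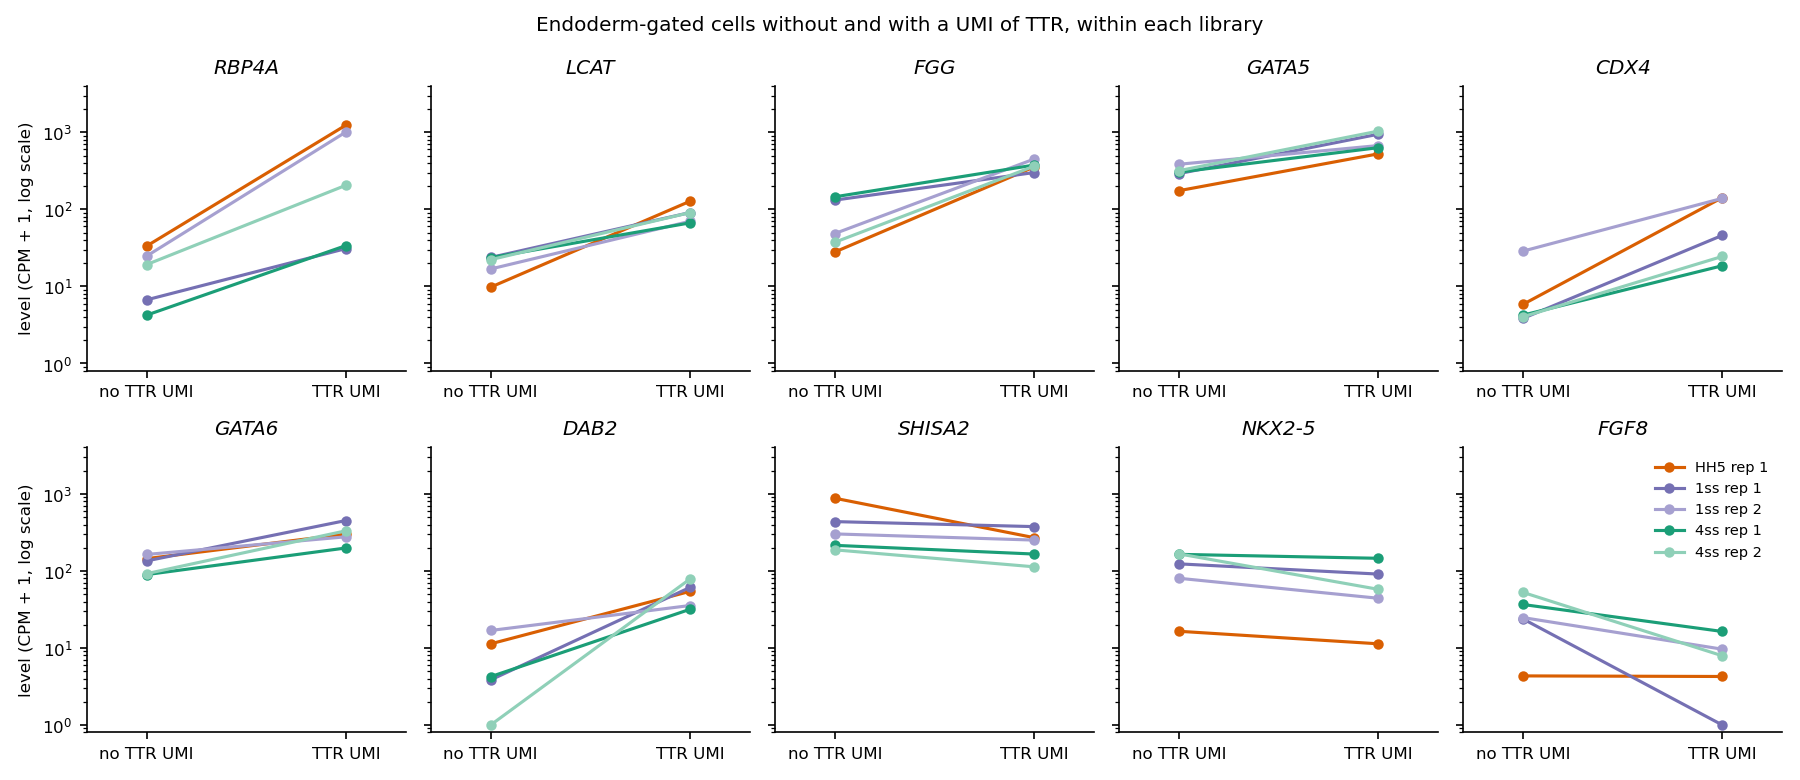
Levels of 10 genes (CPM + 1, log axis) in endoderm-gated cells without and with a TTR UMI, with a line joining the values of each of the 5 libraries. RBP4A, LCAT, FGG, GATA5, CDX4, GATA6 and DAB2 are higher in cells with TTR in all 5, and SHISA2, NKX2-5 and FGF8 are lower.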

How the data were processed

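Midbrain-level tissue of chick embryos was profiled by single-cell RNA-seq in 9 libraries, of which the 6 from HH5, 1ss and 4ss were used. The authors deposited UMI counts per gene and barcode, made with Cell Ranger against the GRCg6a genome and an annotation with selected 3' ends extended. The submitters' processing notes and the headers of these counts give Cell Ranger 6.1.1, while the study's methods name another version, and the counts are not corrected for free RNA or doublets. Of 16880 genes, 4441 had no symbol, and 199 of 230 listed genes were matched by symbol. No genome of this build or sequence table was used, so no sequence or coordinate is given.

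Barcodes were selected by the rule stated above. Libraries are pools of embryos, and nothing says that replicates are separate batches of eggs, so p-values measure the spread between these libraries, which may be technical. This spread was estimated with information shared over genes, so the smallest p-values of the interaction overstate certainty. UMIs were summed per library and class and tested with edgeR 4.0.16 (R 4.3.3, quasi-likelihood, TMM, filterByExpr, Benjamini-Hochberg at 0.05), the 8 rule genes being left out of the tests. The comparison of classes and the interaction had the library as a block, and the stages had none. CPM is UMIs per 1000000 UMIs of a class in a library and is not per length. Clusters came from scanpy 1.11.5 (1000 variable genes, 10 components, 15 neighbours, Leiden resolution 0.3). Doublets were called from simulated barcode pairs at 0.8% per 1000 barcodes and kept, with their removal as an alternative, and thinning drew 2000 UMIs per barcode. The test scripts were tested on simulated data.

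Named genes were the 12 higher and 8 lower genes with the largest log2 difference between classes (adjusted p under 0.05, a symbol, at least 20 CPM in the higher class, the same direction in every library), the 8 in each direction of a stage contrast, the 4 in each direction of the interaction, and listed genes, of which some are not reported here. The members, lists and tests were chosen with earlier results of these data known. Alternatives changed the marker number (2 or 4 of 5), the gene minimum (1000 genes), an upper limit (4000 genes and 40% mitochondrial UMIs), doublets, endothelium and blood barcodes, thinning, depth range (2000 to 10000 UMIs), free RNA (10% subtracted), the low-count filter, the scaling (RLE), the block, the stages fitted, the tool (DESeq2 1.42.0) and single libraries. Leaving out barcodes near the rule, the thinned fit with libraries of at least 20 cells and the crossed pairing were chosen after seeing the data.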

Additional observations from a re-analysis of the deposited data

Results flagged for a closer look

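For 82 genes the change from HH5 to 1ss differed between endoderm-gated cells and other barcodes by the edgeR interaction test. Named by the rule were LGALS3 (4.21 on the log2 scale), PDGFA (3.75), CYP2C23b (3.66) and the kinase gene STK10 (3.54) with a more positive change in endoderm-gated cells. OAF (-11.89), HES5 (-10.73), the forebrain gene FEZF2 (-4.26) and POMC (-3.71) had a more negative one.

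PDGFA was called in every fit that left out 1 library. CYP2C23b was at -1.55 (adjusted p = 1) without HH5 replicate 1, and its call was also lost without HH5 replicate 2 (adjusted p = 0.188) and 1ss replicate 1 (adjusted p = 1). LGALS3 was lost without HH5 replicate 1 (adjusted p = 0.675) and 1ss replicate 1 (0.254), STK10 without HH5 replicate 1 (0.904) and 1ss replicate 2 (0.12), and FEZF2 without 1ss replicate 1 (1), and FEZF2 was at 0.073 (adjusted p = 1) with at least 2 markers. POMC, at 49.0 and 42.1 CPM at HH5 and 7.18 and 5.43 CPM at 1ss in endoderm-gated cells, was called in every fit that left out 1 library.

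OAF and HES5 had 0 UMIs in endoderm-gated cells at 1ss, so their fitted values are no bound. The mean HH5 level was 2.58-fold above a floor of 3 counts over the 1ss stage (3.82 CPM) for OAF, and 1.97-fold above it for HES5. These values leave out the spread of the HH5 level. The OAF call was lost without HH5 replicate 1 (adjusted p = 0.867), 1ss replicate 1 (0.194) or 1ss replicate 2 (0.0529), and that of HES5 without any of the HH5 or 1ss libraries (0.0629 to 0.955).

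In the 7ss libraries, which no comparison used, 14 and 11 barcodes met the rule.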

How the results depend on the processing

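Of the single-gene values tried under alternatives, 2156 of the class comparison kept their direction and their side of the threshold, 169 kept their direction only and 7 reversed. For 4ss against HH5 these numbers were 337, 61 and 0, and for the interaction 233, 148 and 3. The log2 values that reversed were those of CHRD (0.60), OLFML3 (0.021) and TBXT (0.66) with at least 2 markers, and of CLDN1 (0.078), GSC (-0.20), KDR (-2.63) and LMO2 (-1.19) with at least 4 markers, in the class comparison. In the interaction FEZF2 reversed (0.073) with at least 2 markers, and CYP2C23b (-1.55) and FGG (-3.23) reversed without HH5 replicate 1. Without 1 library in turn, CYP2C23b ranged from -1.55 to 5.55 and FGG from -3.23 to 1.77. The causes were not tested.

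The class comparison called 1574 genes with at least 1000 genes a barcode, 1057 and 1433 when thinned with libraries of at least 50 and 20 cells, 1193 with no replicate block by library and 1123 between 2000 and 10000 UMIs. At 1000 genes, thinned with at least 50 cells, between 2000 and 10000 UMIs and with at least 4 markers, only 3 of the 6 libraries remained. The part of the lost libraries in these class fits was not tested. For 1ss against HH5, the call count was 63 with no filter, 8 with only the stages compared, 20 with DESeq2 and 3 to 51 without 1 library. It was 141, 10 and 16 to 96 for 4ss against HH5 under no filter, only the stages compared and without 1 library, with 61 at 1000 genes and 7 when thinned with at least 20 cells. For 4ss against 1ss it was 4 with no filter and 0 to 76 without 1 library. The interaction gave 19 with the upper limit of 4000 genes, 29 with DESeq2, 11 when thinned with at least 20 cells, 0 with no replicate block by library and 21 to 109 without 1 library.

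The share of endoderm-gated cells was 8.17% (HH5), 2.80% (1ss) and 3.74% (4ss) with at least 2 markers, 1.63%, 0.420% and 0.665% with at least 4, and 1.32% at 1ss with at least 1000 genes. Leaving out 1 library gave 1.12% to 7.45% at HH5, 0.986% to 1.17% at 1ss and 0.968% to 2.09% at 4ss. At least 4 markers, at least 1000 genes and thinning with at least 50 cells gave no value for the 1ss contrasts and the interaction, since too few 1ss libraries remained.

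Replicate numbers are not stated to pair libraries. Deviations from the stage means correlated at 0.02 (HH5 with 1ss), -0.16 (HH5 with 4ss) and 0.05 (1ss with 4ss) over 6643 genes. With 2 libraries a stage, these values cannot decide whether the numbers pair them. A replicate block gave 16 calls for 1ss against HH5 and 47 (21 higher, 26 lower) for 4ss against HH5. With the 4ss numbers crossed, 45 genes were called (16 higher, 29 lower).

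Depth is a limit at HH5, where replicate 2 held 118847 UMIs in 51 endoderm-gated cells, so a gene at 0 there may lie anywhere up to the level that 3 counts of that total allow.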
